A study of Saccharomyces cerevisiae with 18 samples.

Results

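The Sko1 peaks seen only in osmotic shock are stretches of the yeast genome at which the deposited peak list gives a Sko1 peak after KCl and no Sko1 peak without it. A member is a peak of the shock library that is at least 100 bp wide and shares no base with any peak, of whatever width, of the mock-treated library. Of 4429 shock peaks of that width, 920 met the rule and the other 3509 shared at least 1 base with a mock-treated peak. The members cover 151157 bp in all, the shared peaks 1056224 bp.

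Sko1 is a bZIP protein of the ATF/CREB family that binds cAMP response element-like DNA and represses osmostress genes with the corepressor Tup1-Cyc8. Osmotic shock activates the MAP kinase Hog1, which enters the nucleus, phosphorylates Sko1 and turns it from a repressor into an activator at some of its targets. Hot1 is a second DNA-binding factor through which Hog1 reaches stress genes, among them those for glycerol production and uptake.

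Sko1 was precipitated with an anti-HA antibody from W303 cells that carried 3HA-Sko1 at its own locus. The cells were either grown in YEPD alone (mock-treated) or kept for 5 min in YEPD with 0.4 M KCl (osmotic shock). The Hot1 peaks used here come from shocked cells that had Hot1-3HA in place of tagged Sko1. Hot1 was also profiled in mock-treated cells, but no peaks of that library are listed. An overlap with Hot1 peaks is therefore not shown to depend on shock. The other libraries used here are Rpb3, a subunit of RNA Pol II, in wild type, Δhog1 and Δsko1Δhot1, Hog1-3HA in wild type and Δsko1Δhot1, and a mock IP from untagged cells and an input, both in wild type and for both treatments. There is 1 library per condition, so that no difference below has a replicate check and no p-value was computed.

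The lists are not on a common scale, which bears on what it means to be absent from the mock-treated library. Each peak has a height, the greatest number of overlapping tags, and a threshold that the height had to pass at that place. The median threshold was 75 tags in the mock-treated list (7215 peaks) and 119 in the shock list (12149 peaks), a ratio of 1.59. Where peaks of both lists overlap, the shock peak was higher by a median factor of 1.70. A member is therefore a place where the mock-treated signal stayed under its own threshold, and not a place shown to be without signal. Heights of the 2 lists are on separate scales, and each is to be read against the thresholds of its own list.

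Most members were low and narrow. Their height was between 90 and 65594 tags with a median of 143, and 765 of 920 were below 160. The shared peaks had a median height of 162. The width had a median of 131 bp among the members and 198 bp among the shared peaks, and 591 members (64.2%) against 1138 shared peaks (32.4%) were under 150 bp. The deposited ratio of IP to input, whose scaling is not stated, had a median of 1.33 in members and 1.52 in shared peaks. It reached 2 in 38 members (4.13%) and in 912 shared peaks (26.0%), and was below 1 in 48 members (5.22%) and 115 shared peaks (3.28%). Members were selected on the positions and widths of called Sko1 peaks in these 2 libraries, so that heights, widths and ratios of the list only describe them.

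The distance of each height from its threshold can be read within the shock list alone. The members exceeded their threshold by a median factor of 1.19 and the shared peaks by 1.34. Of the members, 509 (55.3%) stayed within 1.2 times their threshold, 34 reached 1.5 times and 11 (1.196%) reached 2 times. Among the shared peaks 548 (15.6%) reached 2 times. The greater number of members thus entered the list by a small margin.

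**Figure D1:**
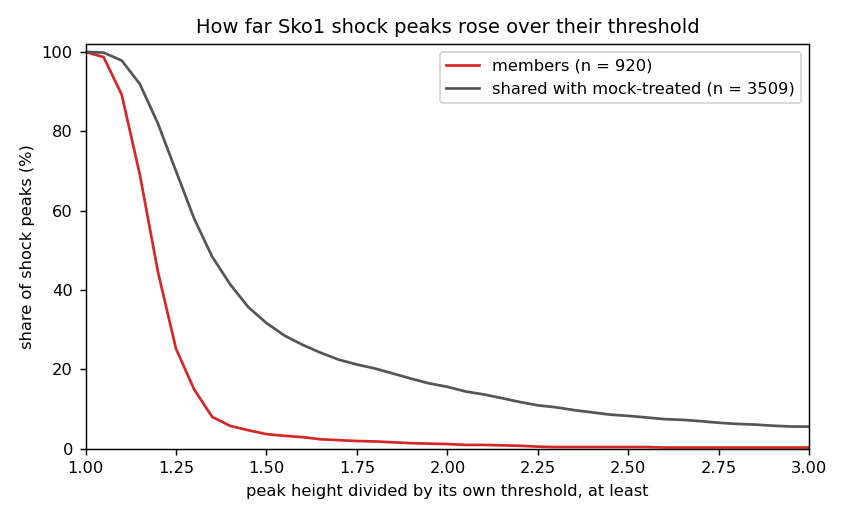
The x axis is the height of a shock peak divided by its own threshold (no unit) and the y axis the share of peaks that reach at least that value, for the 920 members (red) and the 3509 shock peaks shared with the mock-treated list (grey). The red curve drops faster: 1.196% of members and 15.6% of shared peaks reach 2 times the threshold.

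At the limits of the rule, the peaks just inside and just outside had these values. The 3 highest members of exactly 100 bp had heights of 154, 150 and 150, and the 3 highest peaks of 99 bp that are otherwise like members had 164, 163 and 156. The 3 members closest to a mock-treated peak lay 1, 16 and 17 bp from it, with heights of 156, 137 and 145. Shock peaks that shared 1 base were left out, and the 3 highest of them had heights of 169, 165 and 163.

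The highest member stands apart from all others. It lies at chr7:955967-956340 (sacCer2, as are all positions here), is 374 bp wide and had a height of 65594 over a threshold of 243, when the highest of the shared peaks had 14044. No Hot1 peak of at least 100 bp lay within 1131 bp of it, and the nearest mock-treated peak was 3049 bp away. Its ratio was 10.7, so that its height divided by its ratio, which follows the input under a peak up to the unstated scaling, was 6130, the highest of the 920 members against a median of 109. By this measure the input under it was high as well as the IP.

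A pair of other members had a high ratio with little input by the same measure. The 1023 bp member at chr5:115999-117021 (height 343) had the highest ratio of all members, 20.7, and the 112 bp member at chr12:823439-823550 (height 288) had 19.5. Their height divided by ratio was 16.6 and 14.8, the lowest values among the members. The member on chromosome 5 overlapped a Hot1 peak that also had a high ratio, 11.7, at a height of only 168. The nearest Hot1 peak of at least 100 bp to the member on chromosome 12 lay 314 bp away.

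**Figure D2:**
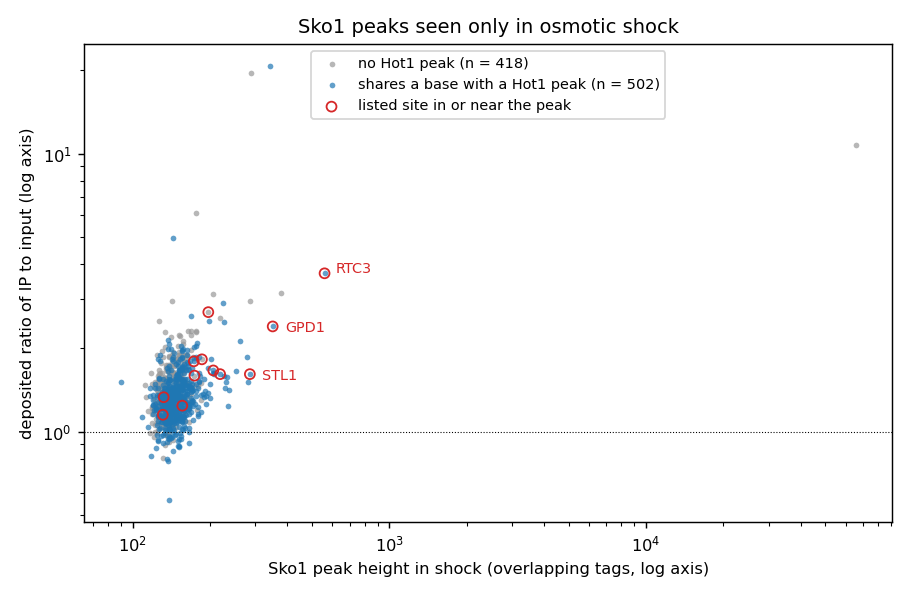
Each point is 1 of the 920 members, with its Sko1 height in shock in overlapping tags on the x axis and the deposited ratio of IP to input on the y axis, both on log axes. Blue points share a base with a Hot1 peak (502), grey points do not (418), red circles mark the 12 members with a motif match listed by the study inside or within 1000 bp, and the dotted line is a ratio of 1. The point at the far right has a height of 65594, and the pair near the top has ratios of 19.5 and 20.7.

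The second highest member is a wide peak with no listed mock-treated peak over any of its bases. It spans 1571 bp at chr8:279996-281566 and holds motif matches for Sko1 and Hot1 that the study lists in the promoter of RTC3, a gene induced by many stresses. Its Sko1 height was 559 over a threshold of 150, with a ratio of 3.71. A Hot1 peak lay over nearly the same bases, chr8:280009-281497, with a height of 1262 and a ratio of 6.02. In the mock-treated list the nearest entry was a 25 bp peak 357 bp away with a height of 90 over a threshold of 86. The untagged mock IP at the RTC3 ORF was 10200 in mock-treated and 41400 in shocked cells. What part such signal has in this peak was not tested.

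The fourth highest member, chr4:413196-413427, holds the matches for both factors listed downstream of GPD1, the gene for the glycerol 3-phosphate dehydrogenase that starts glycerol synthesis. Its height was 351 over a threshold of 155 and its ratio 2.39, and the Hot1 peak over it had a height of 318 and a ratio of 2.42. It does not stand alone. A shock peak of 2823 bp, at chr4:410245-413067, ends 129 bp before it, with a height of 1336 over a threshold of 155. That peak is no member because a 249 bp mock-treated peak lies inside it, with a height of 332 over a threshold of 92. The same locus thus gave a shared peak and a member side by side, and both had a Hot1 peak over them.

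A like arrangement was seen at STL1, which encodes a glycerol proton symporter of the plasma membrane. The member chr4:1509422-1509736 (height 286, threshold 143, ratio 1.61) begins 52 bp after a shared peak of 2419 bp with a height of 1385. It lies within 1000 bp of the listed downstream match and does not hold it. The Hot1 peak over it was low, with a height of 130 and a ratio of 0.891, whereas the Hot1 peak under the start of the shared peak had a height of 1265.

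At CTT1, the cytosolic catalase T gene, the member chr7:653476-653678 holds a Hot1 and a Sko1 match of the promoter, with a height of 206 over a threshold of 129 and a ratio of 1.66. It had a Hot1 peak with a height of 140 over it. The match listed for PDC6, a minor pyruvate decarboxylase gene, lies near the same member. A second wide shock peak, chr7:653935-656548 with a height of 411, begins 257 bp further on and is shared, since 4 low mock-treated peaks of 2 to 70 bp with heights of 75 to 85 lie in it. Here the split between member and shared peak rests on mock-treated peaks that hardly passed their threshold of 74.

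The member at PIL1, the gene for a core component of eisosomes (membrane furrows), is chr7:649130-649259. It holds a downstream Sko1 match and had a height of 186 over a threshold of 129, with a ratio of 1.82. No Hot1 peak of at least 100 bp touched it, but an 80 bp Hot1 peak with a height of 128 did.

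Matches listed by the study are mostly not in members. Of 46 listed matches at 20 genes, 7 at 4 genes (RTC3, GPD1, CTT1 and PIL1) fell in a member, 31 at 13 genes in a shared peak, 1 in a shock peak under 100 bp and 7 in no shock peak. At 8 further genes a match lay within 1000 bp of a member but outside it: STL1, PDC6, HXT5 (a hexose transporter gene), CWP1 (a cell wall mannoprotein gene), CIN5 (a bZIP transcription factor gene), HSP12 (a small heat shock protein gene), HOR7 (a gene responsive to high osmolarity) and NCE102 (an eisosome component gene). Members at these genes often lay beside a much higher shared peak. The CIN5 member had a height of 174 and lay 52 bp from a shared peak of 1879, and the CWP1 member had 197 and lay 79 bp from a mock-treated peak of 1892 with its threshold at 89. The study drew its list of matches from these same libraries, so that these counts are not independent evidence. The other 908 members could not be placed on genes and are given by position.

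Members often lay beside other peaks, as shock peaks did in general. The median distance to the next shock peak was 171 bp for members, 159 bp for shared peaks and 160 bp for all 4429. Another shock peak of any width lay within 200 bp of 516 members (56.1%). Among all members, the nearest shock peak at any distance was higher than the member for 301 (32.7%). A shared peak of at least 100 bp lay within 1000 bp of 509 members. A mock-treated peak lay within 200 bp of 235 members, and none lay within 1000 bp of 260. There were 47 members with no other shock peak within 1000 bp, of which 16 lay over a Hot1 peak. The same share for isolated shared peaks is not given. The member farthest from any mock-treated peak, 17239 bp, was chr10:483819-483930 with a height of 147 and a ratio of 1.08.

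Some members also lay close to each other. The joining below was done for members only and gives no comparison with shared peaks. When members less than 500 bp apart were joined, the 920 gave 797 stretches, of which 700 held 1 member, 77 held 2, 15 held 3, 4 held 4 and 1 held 5. The stretch of 5 members, chr11:165620-167392, had 1379 bp in members and a greatest height of 176, and 3 of its members lay over a Hot1 peak. The stretch chr4:592840-595428 had 3 members and held the widest of all, chr4:593645-595428, 1784 bp with a height of 278. By chromosome, members made up 15.7% (chromosome 15) to 24.7% (chromosome 12) of the shock peaks of at least 100 bp on the numbered chromosomes 1 to 16.

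Hot1 was compared with Sko1 because the rule did not use it. Of the 920 members, 502 (54.6%, exact 95% binomial interval 51.3 to 57.8) shared at least 1 base with a Hot1 peak of at least 100 bp, against 2014 of 3509 shared peaks (57.4%, 55.7 to 59.0). Over all 4429 shock peaks of that width the share was 56.8%. Pooled over all heights and widths, the members' share was thus close to the background of the list. Members were lower and narrower than shared peaks, and the shares within classes of height and width are given below. The intervals cover the counting of peaks only, and neighbouring peaks are not independent.

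The share differed between classes of height. Of the members below a height of 130, 52 of 119 (43.7%) lay over a Hot1 peak, and of those from 160 to below 200 it was 90 of 125 (72.0%). The shared peaks had 48.1% and 60.7% in the same classes, with a lower 43.2% from 130 to below 140, where the members had 43.8%. At heights of 140 to below 160 the members had 57.5% (52.4 to 62.5) and the shared peaks 48.8% (45.8 to 51.8), although the members were narrower there, with a median width of 130 against 150 bp. Only 5 members reached 300, and 3 of them lay over a Hot1 peak.

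**Figure D3:**
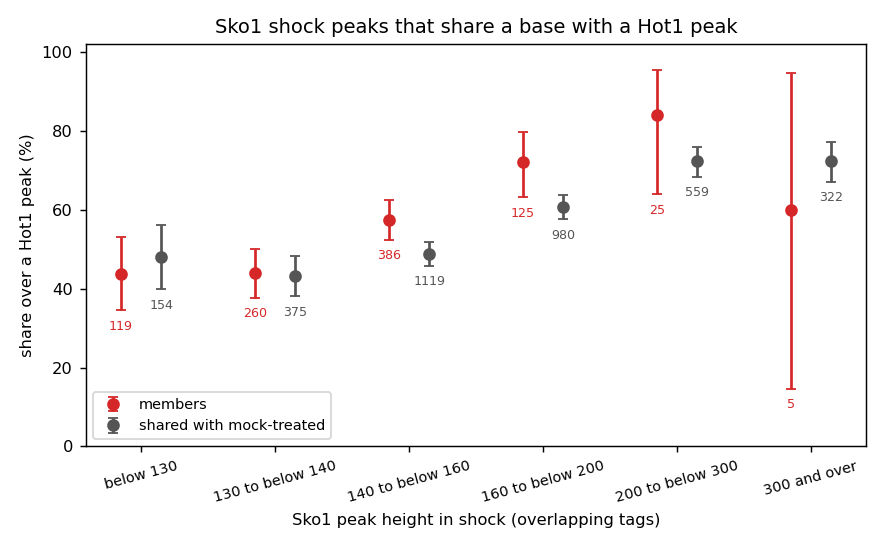
Points are the share (%) of Sko1 shock peaks that share a base with a Hot1 peak, by class of Sko1 height in overlapping tags, for members (red) and peaks shared with the mock-treated list (grey); bars are exact 95% binomial intervals and the numbers are peaks per class. The share of members goes from 43.7% below 130 to 84.0% of 25 peaks at 200 to below 300. At 300 and over it is 3 of 5 peaks. In the same classes the share of shared peaks is 48.1%, 72.3% and 72.4%.

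The share was also greater among wide peaks. All 19 members of at least 500 bp lay over a Hot1 peak, as did 399 of 454 shared peaks of that width (87.9%), while 271 of 591 members under 150 bp did (45.9%) and 421 of 1138 shared peaks (37.0%). Wide peaks have more bases to share. In the members with a ratio of 2 or more, 15 of 38 lay over a Hot1 peak (39.5%, 24.04 to 56.61). In the 48 members with a ratio below 1 it was 33 (68.8%, 53.75 to 81.34). These intervals are wide and overlap. Among the shared peaks with a ratio of 2 or more, 524 of 912 lay over a Hot1 peak (57.5%), close to the 57.4% of all shared peaks. The share for shared peaks with a ratio below 1 is not given.

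Where both factors had a peak, the heights were loosely related. Over the 502 members the Hot1 peak had a median height of 137 (84 to 1262), and it was the higher of the pair for 177 of them, on separate scales. Spearman's rho between the heights was 0.43 and between the ratios 0.55, over 502 pairs that share positions, antibody and treatment. A Hot1 peak that lay over several members was counted once for each, here and in the median, so the pairs are not independent. Each Hot1 height is the greatest over the whole Hot1 peak, and that point can lie outside the member. After RTC3, the member with the highest Hot1 peak was chr1:139471-139768, with a Sko1 height of 262 (ratio 2.12) and a Hot1 height of 518 (ratio 5.02). A second member nearby, chr1:141164-141452, had 238 for Sko1 and 427 for Hot1. The next were chr4:538206-538493 (233 for Sko1 and 475 for Hot1) and the 1784 bp member of chromosome 4 (278 and 454). Among lower Sko1 peaks, chr4:60710-61024 had 155 for Sko1 and 403 for Hot1, and the stretch chr13:599097-600210 held 3 members with Sko1 heights of 152 to 178 under Hot1 peaks of 337 and 340.

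Among shared peaks, 72.3% at heights of 200 to below 300 and 72.4% at 300 and over lay over a Hot1 peak. Of the 15 highest members, 11 lay over a Hot1 peak, close to that share. Besides the spike on chromosome 7 and the member on chromosome 12, those that did not were chr14:19232-19343, with a height of 378 over a threshold of 116 and a ratio of 3.14, and chr14:320086-320255, with 287 over 130 and a ratio of 2.94. The remaining members among the 15 were wide. They were chr7:427281-427922 (height 281, ratio 1.51, Hot1 335), chr8:295173-296451 (252, 1.65, Hot1 301) and chr13:73161-73885 (236, 1.24, Hot1 350). All 3 had a greater height for the overlapping Hot1 peak than for Sko1, on separate scales. The Hot1 peak on chromosome 13 spans chr13:70575-73872 and lies mostly outside the member.

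The ORF table gives RNA Pol II and Hog1 at the 12 genes with a listed match in or near a member. The deposited value is a signal per ORF, scaled by the authors to ORF length and library total and named RPKM by them. Log2 folds compare the shocked with the mock-treated library after adding 989 to either value, which is 0.1 times the median input, and 2-fold counts as changed. Because matches were listed by the study at genes with Hog1 in these libraries, a high count is fixed in part by that choice and nothing about the members is read from it.

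At RTC3 the Rpb3 signal was 10100 in mock-treated and 604000 in shocked wild-type cells, 7330 and 8650 in Δhog1, and 11500 and 249000 in Δsko1Δhot1. The shock value was thus far above the others in wild type, lower in Δsko1Δhot1 and near the unstressed level in Δhog1. At GPD1 it went from 10600 to 864000 in wild type, from 7080 to 14100 in Δhog1 and from 19900 to 287000 in Δsko1Δhot1. At CTT1 the values were 5420 and 265000, 6490 and 4880, and 7630 and 158000 in the same order. Shocked Δsko1Δhot1 cells had lower Rpb3 than shocked wild type at these 3 genes, with a log2 difference of -1.28 at RTC3, -1.59 at GPD1 and -0.74 at CTT1.

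STL1 was the exception in Δsko1Δhot1. Its Rpb3 signal rose from 5140 to 324000 in wild type, but was 7350 and 7000 in Δsko1Δhot1 and 9410 and 12000 in Δhog1. HOR7 was at the other end, with 21200 and 346000 in wild type, 15400 and 418000 in Δsko1Δhot1, and 12000 and 48700 in Δhog1. At PIL1 the signal was 25600 and 251000 in wild type, 13600 and 14300 in Δhog1, and 25600 and 145000 in Δsko1Δhot1.

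In wild type Rpb3 was 2-fold or more higher in shock at 12 of 12 ORFs, with a median log2 fold of 4.41 and a range from 2.37 (NCE102) to 6.25 (HSP12), where 4.49% of 6013 ORFs reached 2-fold and the median was 0.04. In Δhog1 it was 1 of 12, HOR7 with 1.94, against 1.03% of ORFs. In Δsko1Δhot1 it was 11 of 12 with a median of 3.52, against 6.19% of ORFs, and STL1 was the exception with -0.06. The 8 other genes with listed matches, none within 1000 bp of a member, were 8 of 8 in wild type, 0 of 8 in Δhog1 and 5 of 8 in Δsko1Δhot1. Their median in Δsko1Δhot1 was 1.13, and the difference between these gene groups was not tested.

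**Figure D4:**
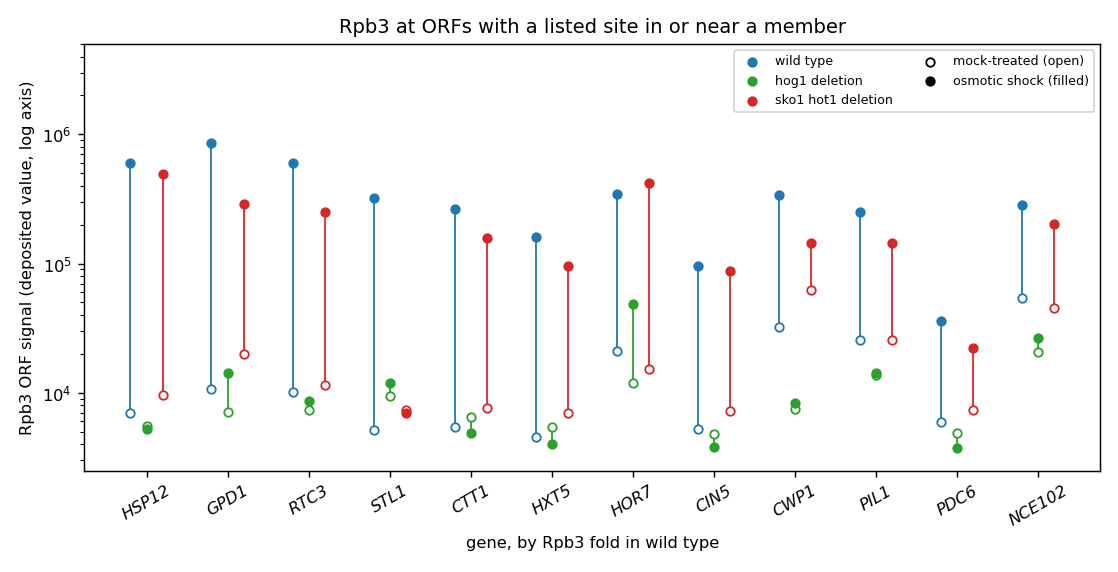
Rpb3 signal of the ORF on a log axis (deposited value) for the 12 genes with a listed match in or near a member, with mock-treated cells as open and shocked cells as filled points, 1 library each, in wild type (blue), Δhog1 (green) and Δsko1Δhot1 (red). The filled blue points sit between 35700 (PDC6) and 864000 (GPD1), and the red pair of STL1 stays at 7350 and 7000.

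Hog1 at the same ORFs was taken as Hog1 minus mock IP, divided by input. GPD1 had a Hog1 signal of 21000 in mock-treated and 169000 in shocked wild-type cells, and 17700 and 49900 in Δsko1Δhot1. RTC3 had 13300 and 115000, and 13500 and 44600. The untagged mock IP rose at these ORFs too, from 8090 to 69900 at GPD1 and from 10200 to 41400 at RTC3, and the input from 11800 to 25300 at GPD1 and from 9750 to 17900 at RTC3. The mock IP was 2-fold or more higher in shock at 11 of the 12 ORFs, against 3.18% of all ORFs, and Hog1 stood 1.76 to 3.24 times above it in shock, when the median ORF had 1.65. In shocked wild type 12 of 12 ORFs had an enrichment over the cutoff of 1.58 (3 SD over the median), against 1.08% of ORFs. Their values went from 1.76 (HXT5) to 4.11 (RTC3). Of the 8 other genes with listed matches, none within 1000 bp of a member, 8 of 8 were over the same cutoff. Passing the cutoff in wild type thus did not set the 12 ORFs apart from them. Without the filter that leaves out the 5% of ORFs with the lowest input, 0 of 12 passed the cutoff recomputed over all ORFs, so that this call depends on the filter. In Δsko1Δhot1 it was 1 of 12, HOR7 with 3.12 over a cutoff of 1.87, against 0.266% of ORFs and 0 of the 8 other genes. For that strain the mock IP and input of wild type had to be used, which gives values below 0 where Hog1 is under the wild-type mock IP, as at GPD1 (-0.79) and STL1 (-1.32). No peaks were listed for the mock IP. What part untagged signal has in the members was not tested.

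**Figure D5:**
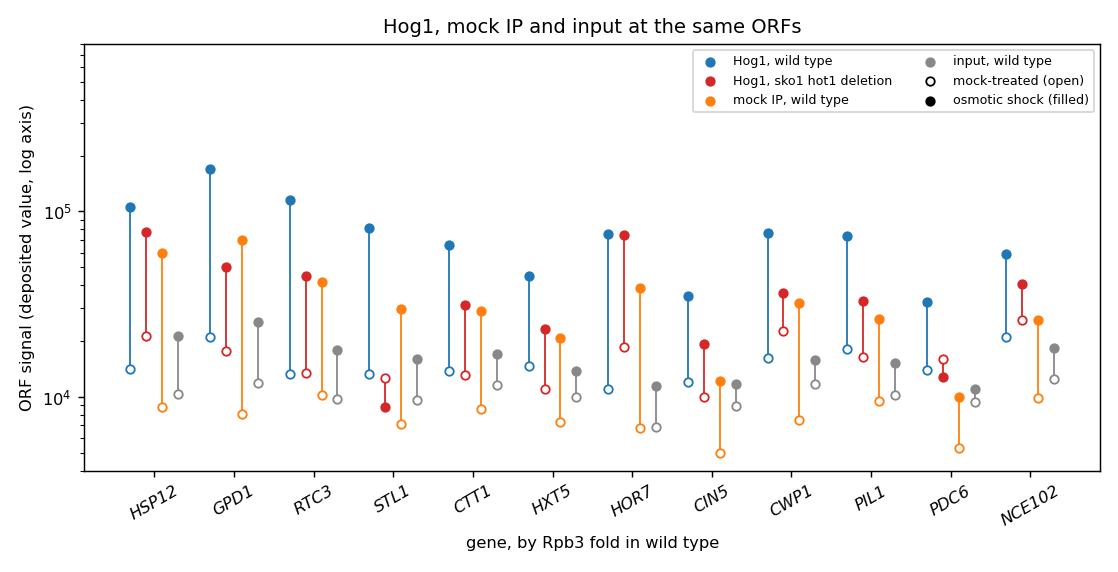
ORF signal on a log axis (deposited value) of Hog1 in wild type (blue) and Δsko1Δhot1 (red), of the mock IP (orange) and of input (grey) at the same 12 ORFs, with mock-treated cells open and shocked cells filled, 1 library each. Blue filled points reach 169000 at GPD1, and the orange pair there goes from 8090 to 69900.

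The promoter table could not give Hog1 at member promoters. Read as headed, the column named input had 9840 in mock-treated and 76000 in shocked cells at the RTC3 promoter, where the column named wild-type Hog1 had 22400 and 7700. It was 2-fold or more higher in shock at 8 of the 8 promoters whose match lies in or near a member, against 1.35% of 6609 promoters. In the ORF table, input was 1.17 to 2.14 times higher in shock at the 12 ORFs, with a median of 1.49 against 1.02 over all ORFs, and it was 2-fold or more higher at 2 of the 12, against 0.0499% of ORFs. With the columns as headed, 0 of 8 promoters passed the Hog1 cutoff in wild type, against 0.106% of all promoters. In Δsko1Δhot1 it was 0 of 8 as well, against 0.212%. The wild-type cutoff was 181.5, when the median over all promoters was -0.196, and in Δsko1Δhot1 it was 3.59 against -0.072. So high a cutoff left 7 of 6609 promoters over it in wild type, and nothing about Hog1 is read from these counts. The heads may be in the wrong order, and columns were not reassigned.

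The lists of stress and membrane genes used here hold 11 of the 12 genes, all but PDC6, and the counts of ORFs with Rpb3 2-fold or more higher in shock are given for wild type, Δhog1 and Δsko1Δhot1 in this order. Over all 6013 ORFs the shares were 4.49%, 1.03% and 6.19%, and those 2-fold or more lower made up 7.73%, 0.0665% and 7.97%. Of 31 general stress genes, which include CTT1, HSP12, HOR7, HXT5 and RTC3, Rpb3 was higher at 27, 2 and 28 and lower at none. Of 14 genes of glycerol synthesis, uptake and breakdown, with GPD1 and STL1, it was higher at 7, 0 and 2, and lower at 1 in Δsko1Δhot1. Of 14 eisosome genes, with PIL1 and NCE102, it was higher at 6, 0 and 6 and lower at none. Of 10 hexose transport genes (HXT5) it was higher at 2, 0 and 3, and lower at 1 in wild type and 1 in Δhog1. Of 27 transcription factor genes (CIN5) it was higher at 7, 1 and 9, and of 19 cell wall and surface genes (CWP1) at 4, 1 and 4, with 1 lower in wild type in each list. The remaining lists hold none of the 12 genes. Of 10 earlier known Sko1 targets Rpb3 was higher at 5, 0 and 4. Of 11 genes of aldehyde and methylglyoxal reduction it was higher at 6, 0 and 3, with 1 lower in wild type. Of 22 genes of the HOG cascade and its control it was higher at 1, 1 and 1. Differences between these groups were not tested.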

How the data were processed

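Each condition, YEPD alone or 5 min of 0.4 M KCl, has 1 library. Reads were aligned to sacCer2 with Bowtie according to the submitters' processing notes. The authors deposited Sko1 and Hot1 peaks called per library with an implementation of PeakSeq: a height and threshold as a signal in overlapping tags, a width in bp, an enrichment given as a ratio over input, a p-value, and a q-value column that exceeds 1 in places and was treated as a score. The p-value and score deposited by the authors were not used, and the screen in the methods is not marked in the lists. The ORF, promoter and downstream signal named RPKM by the authors is taken here as deposited. Downstream values are not reported. The table's yes/no column of Hog1 occupancy, an outcome of the study, was not used either.

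Members and gene lists were chosen with earlier results of these data known. Overlap means at least 1 shared base. Genes were linked to members only through positions of motif matches that the study lists, inside a member or within 1000 bp, since no sacCer2 annotation was used here. Of 46 matches 39 fell in a shock peak. Of 6334 ORF entries 4 sharing a name were left out, then the 5% with the lowest input, leaving 6013. Peaks described are the 15 highest, those with the highest Hot1 peak, those at the limits of the rule, those linked to genes, and some chosen after their values were seen: the stretches of members, the member farthest from a mock-treated peak and those in the closing observations. Sequences are not printed. Read totals per library are unknown. Overlap and fold calculations were tested on simulated data (Python with numpy, pandas and scipy).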

Additional observations from a re-analysis of the deposited data

Results flagged for a closer look

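The log2 fold of Rpb3 had opposite signs in wild type and in a deletion strain at 6 of the 12 genes with a listed match in or near a member, with 1 library per strain and treatment, so that the difference was not tested. In Δhog1 the log2 fold was -0.28 at CIN5, -0.35 at CTT1, -0.07 at HSP12, -0.34 at HXT5 and -0.30 at PDC6, where wild type had 3.95, 5.38, 6.25, 4.86 and 2.41. In Δsko1Δhot1 it was -0.062 at STL1, where wild type had 5.73. None of the 6 negative values reaches 2-fold, so that no fall is counted. The medians over all ORFs were -0.05 in Δhog1 and -0.13 in Δsko1Δhot1, so that negative values were common there too. The share of all ORFs with opposite signs is not given, and nothing about the 12 genes is read from this count.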

How the results depend on the processing

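The number of members depends on the rule. It was 6397 with no minimum width, 168 with a minimum of 200 bp, 2219 when only mock-treated peaks of at least 100 bp counted, and 208 with a height at least the median of shock peaks of at least 100 bp. With no mock-treated peak allowed within 200 bp it was 685. Of 2 settings chosen after seeing the data, leaving out the highest member gave 919, and a height of at least 1.5 times the threshold gave 34. The share over a Hot1 peak, 54.57% as reported, was 23.48% with centres within 50 bp. It was 48.15% with the greater part of the member covered, 75.43% with Hot1 peaks of any width and 75% in the 100 highest members. Shares of shared peaks under these settings are not given. The median log2 fold of Rpb3 at linked ORFs was 3.54 with a pseudocount of 1 times the median input, 6.83 with input subtracted and 5.12 for the 100 highest members, and the count of 12 ORFs for Hog1 became 0 with no filter on input; the cause was not tested. Hog1 at promoters stayed at 0 in all 5 alternatives in both strains. With the heads of those columns in doubt, that is no check on the result. Peak centres in a promoter were not used, for want of an annotation, so the limit of 600 bp was applied to the distance from a listed match.

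No paired analysis was possible because each condition has 1 library. Of 18 libraries 17 were used, all but mock-treated Hot1, which has no listed peaks. Depth per library is unknown, and the threshold of each list limits what counts as absent.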

Other observations

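The peak list numbers a chromosome 17 besides 1 to 16 and gives it no name. It holds 3 members of 52 shock peaks of at least 100 bp (5.77%), with heights of 206, 177 and 149 and ratios of 3.13, 6.09 and 1.55, none over a Hot1 peak. The lowest ratio of a member, 0.566, was at chr7:70191-70330 with a height of 139, and the Hot1 peak over it had a ratio of 0.898.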
